A study of Mus musculus with 8 samples.

Results

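The genes of the mitochondrial respiratory chain and ATP synthase were examined in RNA of the mouse esophagus. They comprised the 13 protein genes of the mitochondrial genome and the nuclear genes whose symbols begin with Ndufa, Ndufb, Ndufc, Ndufs, Ndufv, Uqcr, Cyc1, Cox4 to Cox8 or Atp5, together with Sdha to Sdhd. Assembly factors and genes named as pseudogenes were left out. This gave 103 genes, 90 nuclear and 13 mitochondrial, of 49315 gene identifiers in the count tables. The libraries came from wild-type mice at day 14: 3 libraries from mice whose drinking water held 0.5% SDS, the anionic detergent sodium dodecyl sulfate, and 5 control libraries from mice given untreated water. Genotype and day were the same in both groups, and the labels give neither the strain nor the age of the mice. The tissue is given as esophagus and the treatment and design texts speak of the whole organ, while the extraction text speaks of cell pellets, so which parts of the organ entered a library is not certain. A level reflects all cell types of the sample, and in bulk samples fewer cells of a type and less RNA per cell cannot be told apart. Whether each library is 1 animal is not said in the labels, and p-values measure only the spread between libraries.

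The respiratory chain carries electrons from NADH and succinate to oxygen and pumps protons across the inner mitochondrial membrane, and ATP synthase uses the proton gradient to make ATP. Complex I takes electrons from NADH, complex II from succinate, complex III passes them to cytochrome c, complex IV reduces oxygen, and ATP synthase is often called complex V. All complexes but complex II hold subunits from both genomes, and several complex IV subunits exist in a form used mainly in heart and skeletal muscle and a form used in most tissues. The mouse esophagus has a wall of striated muscle around a squamous epithelium, so both kinds of form can be present in samples of the organ.

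Stretches of mitochondrial DNA are also present in chromosome 1, and 2 of them are shown first because the mitochondrial genes with few counts lie in the copied stretch. The annotated pseudogenes of this copy that were compared lie between positions 24611535 and 24616197 of chromosome 1, on the minus strand (mm10, which is GRCm38). Sequences are from the GENCODE M21 transcripts. The first 60 bases of mt-Co2 (subunit 2 of complex IV, chrMT:7013-7072) and of its copy Gm28661 (chr1:24615506-24615565, minus strand) are the same, with no capitals because no base differs.
mt-Co2: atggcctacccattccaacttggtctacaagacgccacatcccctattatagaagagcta
Gm28661: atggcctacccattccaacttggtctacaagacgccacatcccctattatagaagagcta

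The copy of mt-Co1 (subunit 1 of complex IV, which holds the oxygen-reducing centre) covers a smaller part of its gene and carries 1 difference, A1066T, with positions counted from 1 at the 5′ end of mt-Co1. Below, mt-Co1 (chrMT:6390-6449) and Gm29216 (chr1:24616129-24616188, minus strand) are set side by side, with the differing base in capitals.
mt-Co1: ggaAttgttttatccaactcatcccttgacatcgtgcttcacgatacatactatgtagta
Gm29216: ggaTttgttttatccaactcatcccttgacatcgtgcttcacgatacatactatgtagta

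The other set shown is that of promoters from RefSeq (GRCm38.p6; 250 bases before to 50 after the annotated start), for 3 of the complex IV subunits whose muscle and common forms are compared below. Cox6a1 and Cox8a are the common forms of subunits 6a and 8, and Cox8b is the muscle form of subunit 8. Capitals mark matches on either strand to GCGCA followed by any base and GCGC, the motif of NRF1 (a transcription factor of many respiratory chain genes), to CCGGAAG, the motif of ETS factors, or to CAGCTG, an E-box of the kind that myogenic factors bind. The promoters lie at chr5:115348909-115349208, chr19:7217567-7217866 and chr7:140900397-140900696, all on the minus strand.
Cox6a1 promoter: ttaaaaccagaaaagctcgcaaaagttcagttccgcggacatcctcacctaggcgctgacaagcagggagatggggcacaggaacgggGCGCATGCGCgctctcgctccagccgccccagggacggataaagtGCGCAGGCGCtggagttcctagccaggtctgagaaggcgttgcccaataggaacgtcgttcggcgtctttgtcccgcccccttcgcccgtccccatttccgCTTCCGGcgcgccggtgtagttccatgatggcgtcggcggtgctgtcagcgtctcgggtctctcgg
Cox8a promoter: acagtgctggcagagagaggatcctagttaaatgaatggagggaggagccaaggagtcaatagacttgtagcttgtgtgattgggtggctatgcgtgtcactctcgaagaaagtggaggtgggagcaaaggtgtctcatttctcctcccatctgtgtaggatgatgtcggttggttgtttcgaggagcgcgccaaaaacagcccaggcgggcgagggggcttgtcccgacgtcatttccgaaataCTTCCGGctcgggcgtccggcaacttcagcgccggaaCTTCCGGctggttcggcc
Cox8b promoter: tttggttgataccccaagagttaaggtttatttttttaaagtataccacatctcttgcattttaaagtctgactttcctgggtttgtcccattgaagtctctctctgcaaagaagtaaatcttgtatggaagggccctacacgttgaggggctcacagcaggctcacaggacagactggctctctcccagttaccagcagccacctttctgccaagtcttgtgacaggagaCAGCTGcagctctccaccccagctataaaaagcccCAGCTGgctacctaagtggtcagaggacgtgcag

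The Cox6a1 window held 2 NRF1 matches and 1 ETS match, that of Cox8a held 2 ETS matches, and that of Cox8b held 2 E-boxes. The windows of Cox7a1 and Cox7a2 held none of these motifs, nor AAGATGGCG, the motif of YY1. No promoter of Cox6a2 was used. Over the nuclear genes, 67 of 90 matched an entry, with 72 promoters among them. NRF1 matches were found in 25.0% of the 72, against 4.60% of all 32851 promoters, ETS matches in 22.2% against 8.86%, YY1 matches in 9.72% against 1.40%, and E-boxes in 8.33% against 16.3%. None of the matches overlapped in the windows of these subunits. A match describes letters in a window and is not evidence of binding.

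The count tables held between 22033866 and 29802362 counts per library, and 17179 genes had enough counts to be tested. Markers of several cell types differed between the libraries, and the part of these differences in the levels of the respiratory chain genes was not tested. The summed level of 19 skeletal muscle markers, in CPM (counts scaled to one total in every library), was 39177, 31191 and 22291 in SDS libraries 1 to 3 and 64686, 60940, 48091, 52635 and 47349 in control libraries 1 to 5. Every SDS library was therefore below every control library in this sum. Single markers could overlap, as Myh4 did, with 196 to 231 CPM in SDS libraries and 42.4 to 3223 CPM in control libraries. All 19 markers had a lower fitted level with SDS, with a median log2 fold change of -0.79, although none passed the test. The sum of slow skeletal muscle markers did not separate the groups. It was 1762, 1426 and 848 CPM in SDS libraries and 2476, 1884, 1559, 2353 and 1590 CPM in control libraries. Myl3, the most abundant of them, did, at 1130, 777 and 486 CPM in SDS libraries and 1165 to 1935 CPM in control libraries. Of all genes tested, 6.89% were apart in that direction. Its log2 fold change was -0.91 ± 0.30 (SE), at an adjusted p of 0.154 by edgeR. Of the 7 slow markers, 5 had a higher and 2, Myl3 among them, a lower fitted level with SDS. Their median log2 fold change was 0.16, and none passed the test. Adipocyte markers summed to 3910, 1245 and 1318 CPM in SDS libraries, against 3910, 2403, 1769, 11268 and 2659 CPM in control libraries, so that control 4 stood far above the rest. Smooth muscle markers were likewise highest in control 4, with 908 to 2563 CPM in SDS libraries and 955 to 6082 CPM in control libraries. All 11 adipocyte and all 9 smooth muscle markers also had lower fitted levels with SDS. Their median log2 fold changes were -1.06 and -0.72, and none passed the test. Squamous epithelium markers summed to 95134, 98460 and 159520 CPM in SDS libraries and were lowest in control 4, at 44553 CPM, with 78266 to 144270 CPM in the other control libraries. Of the 12 tested squamous markers, 1 was called higher by edgeR, Krt14, at an adjusted p of 0.0493. It was at 5036, 4008 and 1094 CPM in SDS libraries and at 325 to 822 CPM in control libraries. Leukocyte markers were at 6618, 6826 and 504 CPM in SDS libraries, against 194 to 331 CPM in control libraries. Of 11 tested markers, 4 were called higher by edgeR, against 0.623% of all genes tested. S100a8 and S100a9 made up most of the sums in SDS 1 and SDS 2. There S100a8 was at 2532.8 and 2304.5 CPM and S100a9 at 3557.8 and 3445.4 CPM. Ptprc, another marker of the list, was at 35.8, 76.7 and 9.05 CPM in SDS libraries and at 7.08 to 15.3 CPM in control libraries. Fibroblast markers summed to 2963, 7376 and 1164 CPM in SDS libraries and to 2467, 2367, 2353, 3108 and 2479 CPM in control libraries, so that SDS 2 stood far above every other library and SDS 3 below them. No marker of skeletal muscle, smooth muscle, squamous epithelium, adipocytes or fibroblasts was at 0 counts in any library, while 2 of 6 brown fat markers and 2 of 12 leukocyte markers were at 0 in some libraries.

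No respiratory chain gene passed the test between SDS and control esophagus. Of the 103 genes, 97 were tested: 84 nuclear and all 13 mitochondrial. By edgeR's quasi-likelihood test with Benjamini-Hochberg adjustment over all genes, at an adjusted p under 0.05, 0 of 84 nuclear and 0 of 13 mitochondrial genes were called, while 1.05% of all genes tested were called (180 of 17179), 0.623% as higher (107 genes) and 0.425% as lower (73 genes). Without adjustment, 5 of 84 nuclear genes and 0 of 13 mitochondrial genes had a p under 0.05, against 18.5% of all genes (9.98% higher and 8.53% lower). Those 5 were Cox7a1, Cox6a2, Cox5a and Ndufs7, lower with SDS, and Cox6a1, higher with SDS. DESeq2 called 1 of the 97, Cox7a1, as lower, against 9.31% of all genes by that tool (4.97% higher and 4.34% lower), and limma-voom called 0. The smallest adjusted p of any respiratory chain gene with edgeR was 0.132.

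The fitted levels nevertheless lay mostly on one side. In 72 of 84 nuclear genes (85.7%) and 12 of 13 mitochondrial genes (92.3%) the fitted level was lower with SDS, against 50.7% of all genes tested, the other 49.3% being higher. The median log2 fold change, SDS over control, was -0.15 for the nuclear genes and -0.38 for the mitochondrial genes, beside -0.0047 for all genes. Leaving out SDS 2 gave medians of -0.07 and -0.23, leaving out SDS 1 gave -0.23 and -0.60, and leaving out control 4 gave -0.09 and -0.28. Genes of one pathway vary together between libraries, so these counts do not stand for independent observations. When the mean level of the skeletal muscle markers was added to the model as a covariate, the nuclear median was 0.15 and 70 of 84 genes had a higher fitted level with SDS, and the mitochondrial median was -0.03. The muscle level and the group cannot be told apart well in 8 libraries where the groups do not overlap in it.

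The spread between libraries of a group was of the same size as these medians. Relative to the mean of the control libraries, the median nuclear gene stood at 0.02, -0.28 and -0.11 (log2) in SDS libraries 1 to 3, and at 0.16, 0.00, -0.22, 0.24 and -0.22 in control libraries 1 to 5. SDS 1 and control 2 were thus alike, and only SDS 2 was below all control libraries. The control libraries had an SD of 0.21 in this median. The single lowest of the 8 libraries was SDS 2 for 41 of 84 nuclear genes, control 3 for 15, control 5 for 14 and SDS 3 for 12. The highest was control 4 for 58 genes and control 1 for 19. SDS 1 was below every control library for 2 of the 84 genes, SDS 2 for 48 and SDS 3 for 26. The share of all genes tested below every control library was not computed for each SDS library alone, so these counts have no background. These places are in CPM, and by share of all counts, given below, SDS 2 was not the lowest library for the nuclear genes. All 3 SDS libraries were below all 5 control libraries for 1 nuclear gene, Ndufs3, and for 0 of 13 mitochondrial genes, against 6.89% of all genes tested. None of the 97 tested respiratory chain genes had all SDS libraries above all control libraries, as 6.49% of all genes tested did, and in either direction 13.4% of all genes tested had groups that did not overlap. Control 4, the library with the highest adipocyte and smooth muscle markers, and control 1, with the highest skeletal muscle markers, were the 2 with the highest summed levels of both gene sets. SDS 2, most often the lowest library, was the one with the highest fibroblast and leukocyte markers. Its leukocyte sum of 6826 CPM was close to the 6618 CPM of SDS 1. Yet SDS 1 had the highest summed levels of both gene sets among the SDS libraries.

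**Figure D1:**
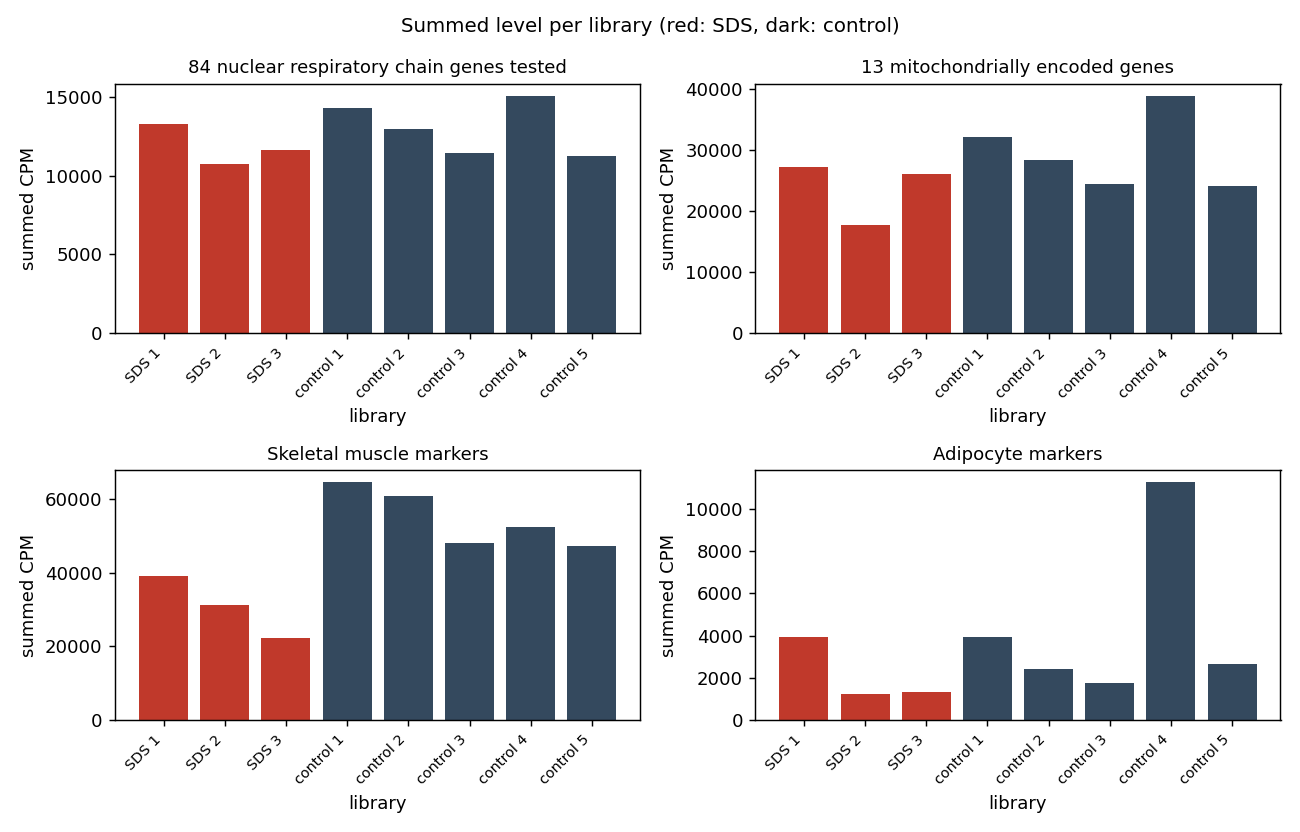
Summed CPM per library of the 84 nuclear genes tested, the 13 mitochondrial genes, the skeletal muscle markers and the adipocyte markers (red bars, SDS libraries; dark bars, control libraries; 1 bar per library). SDS and control bars overlap for both respiratory chain sets, with control 4 highest and SDS 2 lowest, while skeletal muscle markers are lower in all 3 SDS libraries.

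Complex I, the NADH dehydrogenase, had 38 tested nuclear genes by symbol, and 37 of them had a lower fitted level with SDS. Their log2 fold changes ran from -0.33 to 0.05 with a median of -0.18, and none was called. Ndufs7, an iron-sulfur subunit next to the site where coenzyme Q is reduced, had the smallest p. It was measured at 109, 87.3 and 93.6 CPM in SDS libraries and at 133, 124, 102, 135 and 113 CPM in control libraries. The groups overlapped through SDS 1, which was above control 3. The log2 fold change came to -0.33 ± 0.13 (SE), at an adjusted p of 0.225 by edgeR's quasi-likelihood test. Ndufs3, a core subunit of the peripheral arm, was at 79.2, 69.1 and 78.4 CPM in SDS libraries and at 92.0, 93.0, 81.9, 99.2 and 80.2 CPM in control libraries. All SDS libraries lay below all control libraries, but SDS 1 and control 5 were only about 1 CPM apart, and the log2 fold change of -0.24 ± 0.11 (SE) had an adjusted p of 0.278 with edgeR. Ndufb9, an accessory subunit, was the nuclear complex I gene with the largest level per length. It was at 136, 102 and 107 CPM in SDS libraries and at 157, 129, 113, 166 and 114 CPM in control libraries, with overlapping groups. The one gene of the set with a higher fitted level was Ndufa4, at 291, 236 and 281 CPM in SDS libraries and at 281, 294, 280, 235 and 210 CPM in control libraries. The groups overlapped, and its log2 fold change was 0.05 ± 0.15 (SE). It was named as a complex I subunit and is now regarded as part of complex IV.

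Succinate dehydrogenase, complex II, is encoded by 4 nuclear genes only and is shared with the tricarboxylic acid cycle. All 4 had lower fitted levels with SDS, with log2 fold changes from -0.42 to -0.14, and none was called. Sdhc, a membrane anchor, was at 126, 89.6 and 84.5 CPM in SDS libraries and at 152, 132, 111, 162 and 114 CPM in control libraries. SDS 1 lay within the control range and the other SDS libraries below it. Its log2 fold change came to -0.42 ± 0.19 (SE), at an adjusted p of 0.271 by edgeR. Sdha, the subunit that binds succinate, was at 374, 271 and 275 CPM in SDS libraries and at 405, 352, 317, 495 and 312 CPM in control libraries. As for Sdhc, SDS 1 lay within the control range and the other SDS libraries below it.

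Complex III, which passes electrons from coenzyme Q to cytochrome c, had 9 tested nuclear genes. Of these, 8 had a lower fitted level with SDS, with a median log2 fold change of -0.08, and none was called. Uqcrc1, a core subunit, was at 258, 211 and 153 CPM in SDS libraries and at 247, 257, 230, 264 and 224 CPM in control libraries. Here SDS 3 was the lowest library and SDS 1 stood near the top of the control range. Uqcrfs1, the Rieske iron-sulfur protein, was at 147, 109 and 111 CPM in SDS libraries and at 151, 136, 129, 169 and 120 CPM in control libraries. Uqcrb, a small subunit, had the largest level per length among the nuclear genes of this complex. Its log2 fold change was -0.07 ± 0.15 (SE), with 165, 135 and 168 CPM in SDS libraries and 182, 164, 144, 195 and 134 CPM in control libraries.

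ATP synthase, complex V, had 17 tested nuclear genes, 14 of them with a lower fitted level with SDS, a median log2 fold change of -0.11 and none called. Atp5b, the catalytic beta subunit, had the highest level per length of all nuclear genes of the set, with a mean of 818 TPM (a level corrected for gene length and scaled to one total in every library). In CPM it was at 1511, 1252 and 1156 in SDS libraries and at 1575, 1440, 1315, 1704 and 1292 in control libraries. The log2 fold change of Atp5b was -0.17 ± 0.16 (SE). Atp5c1, the gamma subunit that turns within the catalytic head, was at 246, 180 and 218 CPM in SDS libraries and at 288, 239, 220, 291 and 209 CPM in control libraries. Atp5s, a coupling-factor-like gene, was low, at 7.07, 5.48 and 8.01 CPM in SDS libraries and 9.45, 7.70, 8.42, 8.18 and 8.47 CPM in control libraries. The groups overlapped for all 3 of these genes.

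**Figure D2:**
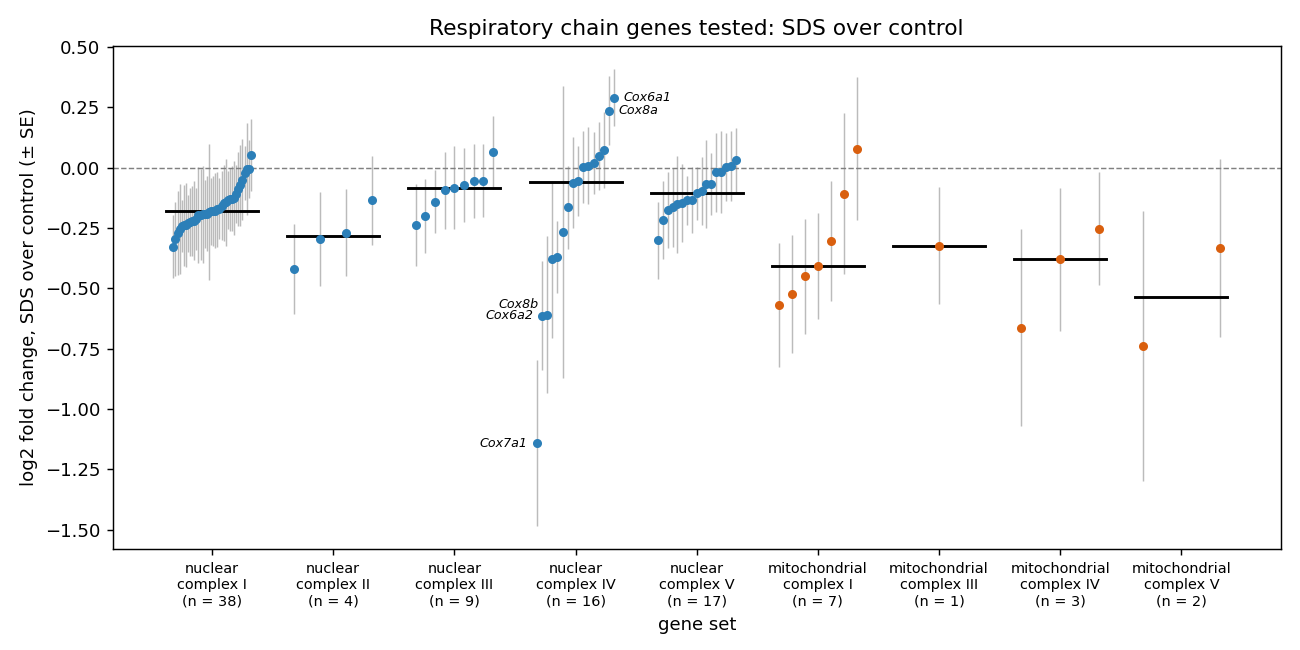
Log2 fold change of SDS over control for the 97 tested genes (1 point per gene, bars are standard errors), grouped by genome and complex, with black lines at the medians. Most points lie below 0, none passed the test, and the widest range, from -1.14 to 0.29, is that of nuclear complex IV.

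Complex IV, cytochrome c oxidase, had the widest range of log2 fold changes among the nuclear complexes. Of its 16 tested nuclear genes, 9 had a lower and 7 a higher fitted level with SDS, with a median of -0.06 and a range from -1.14 to 0.29. The 3 lowest were the muscle forms Cox7a1, Cox6a2 and Cox8b, and the 2 highest were the common forms Cox6a1 and Cox8a. None of these passed the edgeR test.

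Cox7a1, the heart and skeletal muscle form of subunit 7a, was at 49.1, 18.8 and 30.6 CPM in SDS libraries and at 99.8, 72.9, 54.5, 86.1 and 48.6 CPM in control libraries. SDS 1 and control 5 nearly coincided, while SDS 2 and SDS 3 were below every control library. The log2 fold change came to -1.14 ± 0.34 (SE), at an adjusted p of 0.132 by edgeR's quasi-likelihood test and 0.0175 by DESeq2. Its common counterpart Cox7a2 was at 108, 85.2 and 114 CPM in SDS libraries and at 113, 104, 86.7, 122 and 85.0 CPM in control libraries, a log2 fold change of 0.01 ± 0.16 (SE).

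Cox6a2, the muscle form of subunit 6a, was at 96.7, 75.9 and 101 CPM in SDS libraries and at 178, 135, 96.1, 176 and 114 CPM in control libraries. The groups overlapped through control 3. The log2 fold change came to -0.61 ± 0.23 (SE), at an adjusted p of 0.195 by edgeR. Cox6a1, the common form, was at 224, 209 and 256 CPM in SDS libraries and at 165, 192, 191, 211 and 181 CPM in control libraries. SDS 2 and control 4 overlapped narrowly, and the log2 fold change came to 0.29 ± 0.12 (SE), at an adjusted p of 0.240 by edgeR.

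Cox8b, the muscle form of subunit 8 whose promoter held the 2 E-boxes, was at 87.7, 47.8 and 81.7 CPM in SDS libraries and at 145, 107, 69.4, 156 and 74.7 CPM in control libraries. Only SDS 2 was below every control library. The log2 fold change came to -0.61 ± 0.33 (SE), at an adjusted p of 0.363 by edgeR. Cox8a, the common form, was at 160, 127 and 140 CPM in SDS libraries and at 124, 113, 107, 152 and 110 CPM in control libraries, a log2 fold change of 0.24 ± 0.14 (SE) with an adjusted p of 0.431.

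Set against its common counterpart within the same library, each of these 3 muscle forms took a smaller share with SDS. Shares were taken of the TPM of both forms, which corrects for gene length. Cox6a2 made up 30.8, 27.2 and 29.1% of the 6a pair in SDS libraries, against 52.6, 41.9, 34.2, 46.3 and 39.4% in control libraries, which is 29.0 ± 1.77% with SDS and 42.9 ± 6.96% in controls (SD, n = 3 and n = 5). Cox7a1 made up 44.4, 28.0 and 32.1% of the 7a pair in SDS libraries, against 61.0, 55.3, 52.6, 55.4 and 50.2% in control libraries. Cox8b made up 45.4, 36.3 and 46.8% of the subunit 8 pair in SDS libraries, against 64.0, 58.9, 49.7, 60.9 and 50.7% in control libraries. In all 3 pairs the highest SDS library was below the lowest control library. Of single genes tested, 6.89% had all SDS libraries below all control libraries, and no such background was computed for shares of pairs. The 3 muscle forms can vary together between libraries, so they do not stand for independent observations. These shares were chosen for description with the earlier results known and were given no test. The sum of the skeletal muscle markers, given above, was also lower in all 3 SDS libraries, and the part of muscle in the shares was not tested.

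**Figure D3:**
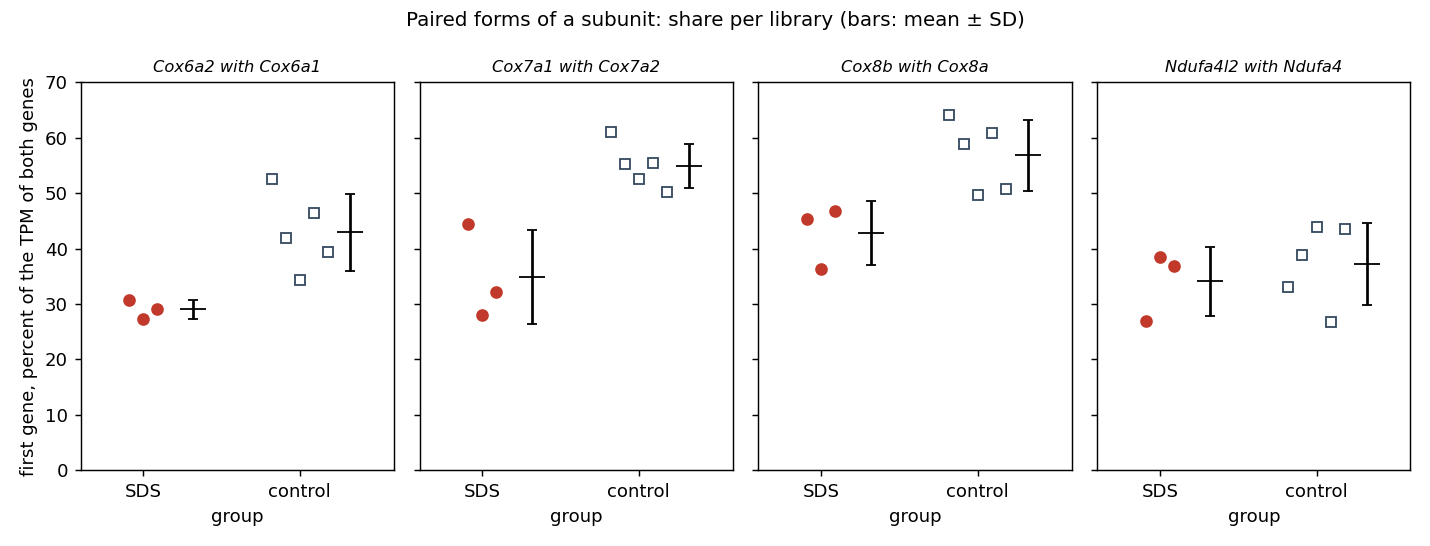
Share of the first-named gene in the TPM of each pair, in percent (1 point per library, with the mean and SD beside the points; SDS left, control right). The 3 pairs of muscle and common complex IV subunits have no overlap between the groups, with 42.8 ± 5.72% for Cox8b with SDS and 56.8 ± 6.36% in controls, while Ndufa4l2 with Ndufa4 overlaps.

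The other paired forms did not separate the groups. Cox4i2, a form of subunit 4 found mainly in lung and induced by low oxygen, was at 1.22, 0.492 and 0.292 CPM in SDS libraries and at 0.922, 0.578, 0.332, 1.62 and 0.534 CPM in control libraries. It took 0.310 ± 0.191% of the pair with Cox4i1 in SDS libraries and 0.354 ± 0.177% in control libraries (SD, n = 3 and n = 5). Cox6b2, a testis form, was at 1.93, 2.00 and 1.54 CPM in SDS libraries and at 2.56, 1.73, 1.33, 3.38 and 2.86 CPM in control libraries. It made up 0.663 ± 0.138% of its pair with Cox6b1 in SDS libraries and 0.878 ± 0.295% in control libraries. Cox4i1, the common subunit 4, was at 458, 371 and 385 CPM in SDS libraries and at 448, 405, 369, 498 and 382 CPM in control libraries. Cox6b1 was at 192, 156 and 181 CPM in SDS libraries and at 194, 172, 150, 194 and 144 CPM in control libraries, and Cox7b at 149, 118 and 144 CPM in SDS libraries and at 152, 131, 110, 151 and 107 CPM in control libraries. Ndufa4l2, a hypoxia-induced relative of Ndufa4, was at 74.3, 103 and 114 CPM in SDS libraries and at 96.5, 130, 152, 59.5 and 113 CPM in control libraries. Its share of the pair with Ndufa4 was 34.1 ± 6.28% with SDS and 37.2 ± 7.32% in controls. It was lowest in control 4, where most nuclear genes of the set were highest.

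Complex IV also held Cox5a, a subunit with a single form, at -0.37 ± 0.15 on the log2 scale (SE) and an adjusted p of 0.233 by edgeR. Cox5b, at 0.00 ± 0.15 (SE), and Cox7a2l, at 0.02 ± 0.13 (SE), lay near 0. For Cox7a2l, control 1 stood apart from the other control libraries. The 6 nuclear genes with too few counts for a test were Ndufs6b, Ndufb4c, Ndufa11b, Cox6c2, Cox7b2 and Cox8c. GENCODE M21 annotates 4 of them (Ndufs6b, Ndufb4c, Ndufa11b and Cox6c2) as processed pseudogenes. Cox7b2, a testis form, had 1 count in all 8 libraries, in control 4, and Cox8c was at 0 counts in all of them.

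The 13 mitochondrial genes formed 2 classes by level. Of the 13, 7 had 121162 to 2554358 counts in all and levels of 1743 to 29900 TPM per library. The other 6, mt-Co2, mt-Co3, mt-Atp6, mt-Atp8, mt-Nd3 and mt-Nd4l, had 160 to 1683 counts and 2.15 to 83.9 TPM, and together held 0.0604% of the counts of the 13. They lie next to each other in the genome between mt-Co1 and mt-Nd4, in the stretch that is also present on chromosome 1. Of these 6, 5 had an annotated copy there (Gm28661 of mt-Co2, Gm28437 of mt-Co3, Gm10925 of mt-Atp6, Gm28438 of mt-Nd3 and Gm10222 of mt-Nd4l) that was identical over 98.3 to 99.9% of the gene. None of the annotated copies compared here was matched to mt-Atp8, which shares 43 bases with mt-Atp6. The annotation was not searched for further copies, so whether mt-Atp8 has one of its own was not tested. By contrast, Gm28439 matched 63.6% of mt-Nd4 without a mismatch, and Gm29216 matched 31.3% of mt-Co1 with the difference shown above. The copies themselves had few counts, 94 to 372 each in all. How reads with several matches were counted is not given in the sources used here, and its part in the low levels was not tested.

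**Figure D4:**
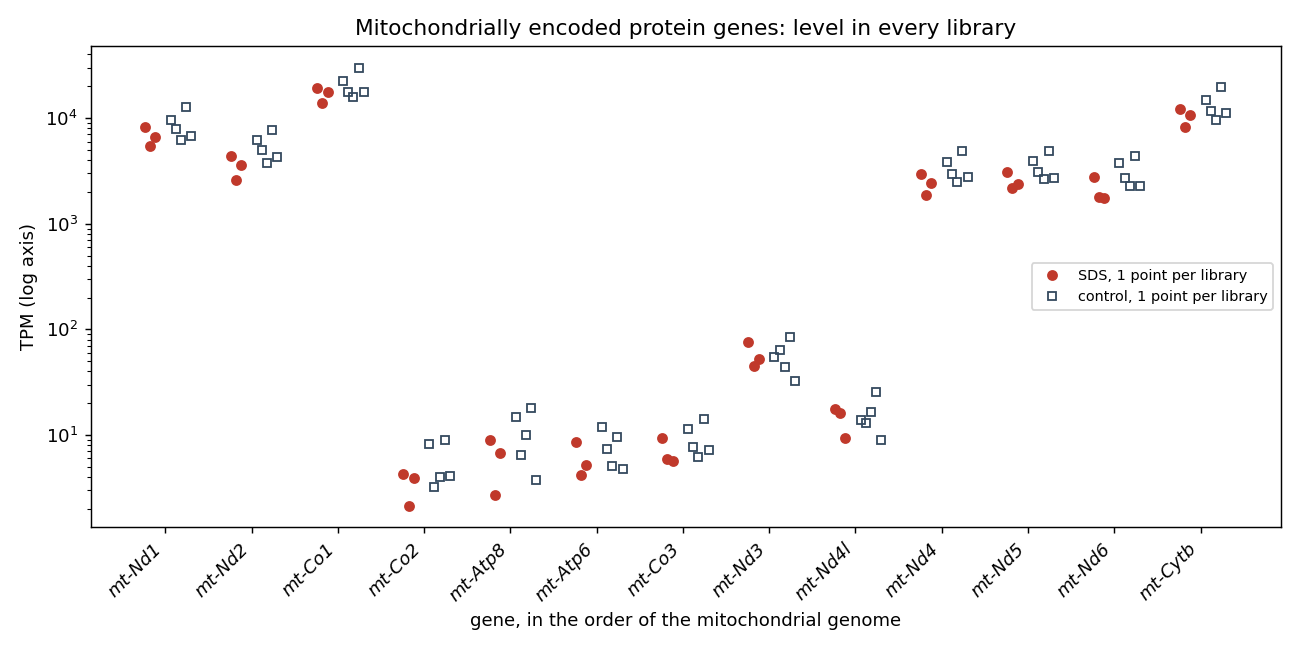
Level of each mitochondrial protein gene in every library, in TPM on a log axis, in genome order (filled points, SDS; open squares, control). The 6 genes from mt-Co2 to mt-Nd4l lie between 2.15 and 83.9 TPM and the other 7 at 1743 TPM or more in every library of both groups.

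Among the well-counted mitochondrial genes, all 7 had lower fitted levels with SDS, with a median log2 fold change of -0.41, and none passed the test. The median of these genes, relative to the control mean, was -0.12, -0.73 and -0.30 (log2) in SDS libraries and 0.17, -0.04, -0.27, 0.41 and -0.31 in control libraries. SDS 2 alone was below every control library. The 13 genes took 2.80, 1.89 and 2.46% of all counts in SDS libraries and 3.30, 2.67, 2.22, 4.21 and 2.43% in control libraries. The nuclear genes took 1.37, 1.15 and 1.10% in SDS libraries and 1.47, 1.22, 1.04, 1.63 and 1.13% in control libraries. SDS 1 was thus the highest SDS library and control 4 the highest control library in both genomes. By this share, which uses no TMM scaling, SDS 2 was not the lowest library for the nuclear genes. There SDS 3, control 3 and control 5 were lower, so the place of SDS 2 in nuclear CPM depends on the scaling.

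Of the complex I genes of the mitochondrial genome, mt-Nd2, a membrane subunit of the proton-pumping arm, had the largest difference among well-counted genes. It was at 1849, 1022 and 1668 CPM in SDS libraries and at 2529, 2265, 1764, 2893 and 1779 CPM in control libraries. SDS 1 lay above control 3 and control 5, and the other SDS libraries below all controls. The log2 fold change came to -0.57 ± 0.26 (SE), at an adjusted p of 0.280 by edgeR's quasi-likelihood test. For mt-Nd4, another proton-pumping subunit, the levels were 1637, 985 and 1493 CPM in SDS libraries and 2068, 1787, 1522, 2476 and 1520 CPM in control libraries, a log2 fold change of -0.45 ± 0.24 (SE). For mt-Nd1, which lies at the coenzyme Q site, they were 3225, 1976 and 2882 CPM in SDS libraries and 3652, 3316, 2643, 4449 and 2566 CPM in control libraries. SDS 1 and SDS 3 stood inside the control range for mt-Nd1, whose log2 fold change was -0.30 ± 0.25 (SE).

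The largest membrane subunit, mt-Nd5, was at 2300, 1525 and 1939 CPM in SDS libraries and at 2843, 2479, 2174, 3273 and 1980 CPM in control libraries. The only protein gene on the other strand, mt-Nd6, was at 579, 354 and 407 CPM in SDS libraries and at 767, 612, 528, 835 and 473 CPM in control libraries. For both, SDS 1 lay inside the control range and the others below it. Their log2 fold changes were -0.41 ± 0.22 and -0.52 ± 0.24 (SE). They share 14 bases on opposite strands, and since the strand setting of the counting is not given, reads from the 2 strands cannot be told apart there. Of the low-counted complex I genes, mt-Nd3 was at 10.6, 6.01 and 8.26 CPM in SDS libraries and at 7.51, 9.73, 6.94, 10.6 and 4.50 CPM in control libraries, the one mitochondrial gene with a higher fitted level, at 0.08 ± 0.30 (log2, SE). Its sign turned without SDS 1 and without control 5. The gene mt-Nd4l, which shares 7 bases with mt-Nd4, was at 2.12, 1.83 and 1.25 CPM in SDS libraries and at 1.64, 1.69, 2.18, 2.77 and 1.07 CPM in control libraries.

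Cytochrome b, mt-Cytb, the mitochondrial subunit of complex III, was at 5612, 3630 and 5477 CPM in SDS libraries and at 6679, 5859, 4941, 8172 and 5053 CPM in control libraries. The groups overlapped, and the log2 fold change was -0.32 ± 0.24 (SE). The most abundant gene of the set, mt-Co1, was at 11954, 8194 and 12153 CPM in SDS libraries and at 13650, 11995, 10869, 16846 and 10821 CPM in control libraries. SDS 1 and SDS 3 stood within the control range and SDS 2 below it. Its log2 fold change came to -0.25 ± 0.23 (SE), at an adjusted p of 0.616 by edgeR.

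The other complex IV and V genes of the mitochondrial genome were the 4 with few counts. For mt-Co2 the levels were 1.18, 0.562 and 1.21 CPM in SDS libraries and 2.22, 0.963, 1.22, 2.23 and 1.11 CPM in control libraries. For mt-Co3 they were 2.99, 1.76 and 2.00 CPM in SDS libraries and 3.52, 2.65, 2.18, 4.02 and 2.25 CPM in control libraries. The ATP synthase subunit mt-Atp6 was at 2.40, 1.09 and 1.59 CPM in SDS libraries and at 3.21, 2.17, 1.55, 2.40 and 1.30 CPM in control libraries, and mt-Atp8 at 0.747, 0.211 and 0.626 CPM in SDS libraries and at 1.19, 0.578, 0.923, 1.35 and 0.305 CPM in control libraries. The groups overlapped for all 4, with standard errors of 0.29 to 0.56 on the log2 scale.

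Composition was described only within the 7 well-counted mitochondrial genes, by the share of each in their summed counts. This share does not depend on how libraries are scaled. Parts of mt-Nd4 and mt-Co1 are also present on chromosome 1, as given above, and the part of these copies in the shares was not tested. The share of mt-Nd2 was 6.81, 5.78 and 6.41% in SDS libraries and 7.86, 8.0, 7.22, 7.43 and 7.35% in control libraries. That of mt-Nd4 was 6.03, 5.57 and 5.74% in SDS libraries and 6.42, 6.31, 6.23, 6.36 and 6.28% in control libraries. For both, all SDS libraries lay below all control libraries. Of single genes tested, 6.89% did so by level, and no such background was computed for shares. The share of mt-Co1 was 44.0, 46.3 and 46.7% in SDS libraries and 42.4, 42.4, 44.5, 43.3 and 44.7% in control libraries, with overlap through SDS 1. The shares of mt-Nd1, mt-Nd5, mt-Nd6 and mt-Cytb overlapped as well. Shares of one total are tied to each other, and they were described without a test.

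**Figure D5:**
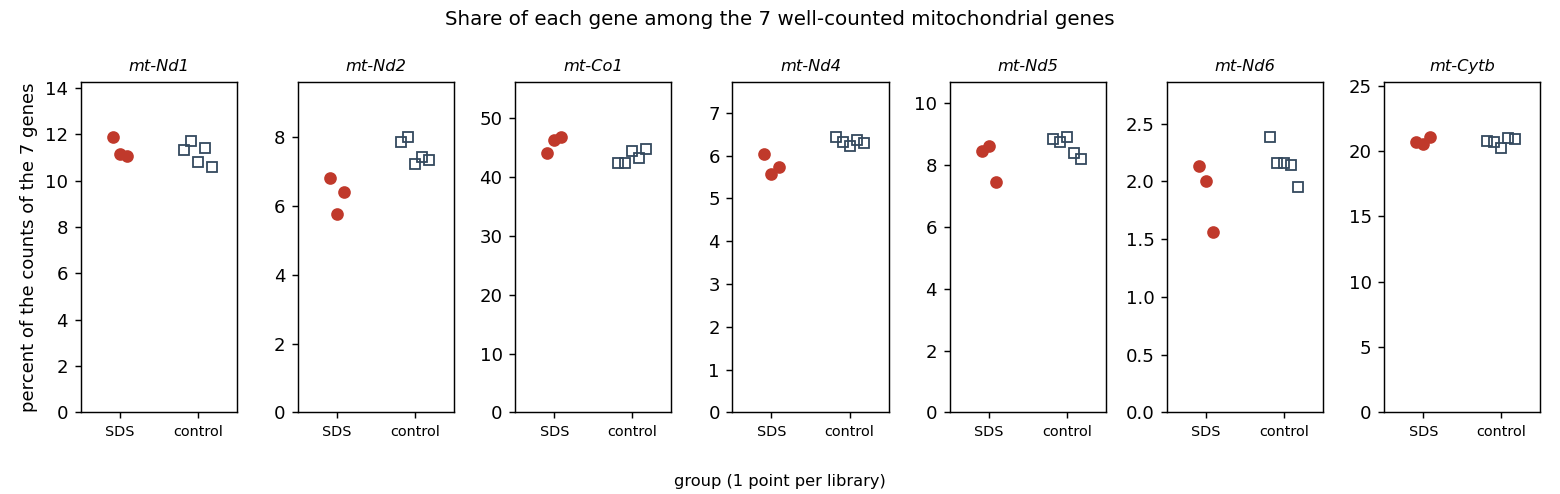
Share of each of the 7 well-counted mitochondrial genes in their summed counts, in percent (1 point per library; filled points, SDS; open squares, control; each axis starts at 0). The groups do not overlap for mt-Nd2, at 6.33 ± 0.519% with SDS and 7.57 ± 0.339% in controls, and for mt-Nd4, at 5.78 ± 0.231% with SDS and 6.32 ± 0.0745% in controls.

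Other mitochondrial genes were taken from lists that do not overlap these sets. None of their tested genes passed the edgeR test. The list of the tricarboxylic acid cycle, which supplies NADH and succinate, also held pyruvate dehydrogenase genes (Pdha1, Pdhb, Dlat and Pdhx) and Pcx, pyruvate carboxylase. It did not hold the Sdh genes. All 19 genes of this list had lower fitted levels with SDS, with a median log2 fold change of -0.34. Cs, citrate synthase, had the smallest p, with 379 ± 33.9 CPM in SDS libraries and 471 ± 22.8 CPM in control libraries (SD, n = 3 and n = 5) and an adjusted p of 0.199. All 19 genes of fatty acid oxidation were lower as well, with a median of -0.24. Cpt1b, the muscle form of the enzyme that admits long-chain fatty acids to mitochondria, was at 9.90 ± 4.66 CPM in SDS libraries and 21.1 ± 4.68 CPM in control libraries, a log2 fold change of -1.09 ± 0.33 (SE) with an adjusted p of 0.128 by edgeR.

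In the list of cytochrome c and coenzyme Q genes, 13 of 14 were lower, with a median of -0.30. Pdss2, which makes the side chain of coenzyme Q, had the smallest p, at -0.40 ± 0.12 (log2, SE) and an adjusted p of 0.141. Among factors that assemble the complexes, 35 of 43 were lower, with a median of -0.15. Bcs1l, which inserts the Rieske protein into complex III, had the smallest p there, at -0.44 ± 0.11 (log2, SE) and an adjusted p of 0.0959. Genes of mitochondrial transcription and RNA processing had a median of -0.09, with 17 of 23 lower. Mterf2, a mitochondrial transcription factor, was at -0.70 ± 0.20 (log2, SE) with an adjusted p of 0.115. Regulators of mitochondrial biogenesis had a median of -0.04, with 8 of 15 lower, a share close to that of all genes. Perm1, a muscle regulator of that list, had the smallest p, at -0.35 ± 0.14 (log2, SE) and an adjusted p of 0.239. All these p are from edgeR's quasi-likelihood test, adjusted over all genes.

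The carriers that exchange ADP and ATP across the inner membrane also have a muscle and a common form. Slc25a4, the heart and muscle form, was at 784, 458 and 564 CPM in SDS libraries and at 1214, 1010, 790, 1156 and 827 CPM in control libraries. Slc25a5, the form of most dividing tissues, was at 354, 363 and 370 CPM in SDS libraries and at 227, 279, 288, 234 and 241 CPM in control libraries. All SDS libraries were below all control libraries for Slc25a4 and above them for Slc25a5. Of all genes tested, 6.89% were apart in the lower and 6.49% in the higher direction. The log2 fold changes were -0.73 ± 0.23 (SE), at an adjusted p of 0.142, and 0.51 ± 0.12 (SE), at an adjusted p of 0.0777, by edgeR. Neither passed the threshold. Both belong to a list of 7 ADP/ATP carriers and uncoupling proteins. Of its 5 tested genes, 4 were lower and 1 higher with SDS, with a median log2 fold change of -0.07.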

How the data were processed

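The authors deposited raw counts per gene, 1 table per library, from poly(A)-selected RNA, per the labels' protocols, which speak of the whole esophagus in one place and of cell pellets in another. Per the submitters' processing notes, STAR 2.6.1c, Subread and mm10 were used. Annotation release, strand setting and the handling of multiply matching reads: not given in the sources used here. Thus counts of paralogs and overlapping genes are uncertain. Symbols came from a table that matched 48970 of 49315 identifiers, and GENCODE M21 placed 83 of the 103 genes at identical positions. Neither mitochondrial ribosomal RNA matched an identifier.

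The test was run in edgeR 4.0.16 (R 4.3.3): filterByExpr (minimum count 10, minimum total 15), TMM scaling, a robust quasi-likelihood fit with group as its term, a two-sided test and Benjamini-Hochberg adjustment over 17179 genes with a threshold of 0.05. Standard errors equal the log2 fold change over the root of the F statistic. CPM used TMM-scaled library sizes, log2 CPM a prior count of 2, and TPM were computed from the deposited counts and gene lengths. The common biological coefficient of variation was 29.3%. Alternatives were other scalings and filters, DESeq2 1.42.0, limma-voom (limma 3.58.1), a skeletal muscle covariate, a replicate block and leaving out each library. On simulated counts for this comparison (16948 genes), the test called 33% of genes changed 2-fold, 79.2% of those changed 4-fold and 12 unchanged genes. Within groups, every pair of libraries differed beyond sampling noise, with a chi-square per degree of freedom of at least 23.1.

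The genes described in every library were the 13 mitochondrial genes, both genes of each pair of tissue or stress forms, and in each nuclear complex the 2 genes with the smallest p and the gene with the largest TPM. Cox5a and others outside this rule are named for counts, and were chosen after their values were seen. For the lists, the gene with the smallest p was named. Slc25a4 was also chosen after its values were seen. The genes and lists were chosen with earlier results of these data known.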

Additional observations from a re-analysis of the deposited data

Results flagged for a closer look

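In 4 of 138 sets of control values, 1 control library stood far from the other 4 (its gap to the nearest library exceeded 0.71 of the whole range), and chance alone flags about 1 in 20 sets. Of these, 3 were marker sums in control 4: adipocyte markers at 11270 CPM, brown fat markers at 114.6 CPM and fibroblast markers at 3108 CPM. Control 4 was also the highest library for 58 of 84 nuclear respiratory chain genes. The fourth was Cox7a2l, a relative of Cox7a2 that takes part in joining complexes III and IV, at 126.9 CPM in control 1. It was the only one of the 97 tested respiratory chain genes picked out by this comparison.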

How the results depend on the processing

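The number of nuclear and of mitochondrial respiratory chain genes called was 0 under every alternative run except DESeq2, which called 1 nuclear gene (Cox7a1). Over all genes, the count of 180 calls was 1599 with DESeq2, 0 with the skeletal muscle covariate, 0 with the replicate block (SDS 1 to 3 against control 1 to 3) and 2 with the same libraries without the block, an alternative chosen after seeing the data. Leaving out 1 library gave between 4 and 1222 calls: 56 without SDS 1, 4 without SDS 2, 1222 without SDS 3, 4 without control 1, 7 without control 2, 18 without control 3, 122 without control 4 and 10 without control 5. Replicate numbers were not treated as pairs in the main fit. Deviations from the group mean correlated at 0.311, -0.00564 and 0.307 for same-numbered libraries. For differently numbered libraries the correlations ran from -0.451 to 0.225. These values do not settle whether the numbers mark pairs.

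The nuclear median was 0.147 and the mitochondrial median -0.0278 with the covariate. Without 1 library the nuclear median ran from -0.233 to -0.0715 and the mitochondrial from -0.597 to -0.229, nearest 0 without SDS 2 and farthest without SDS 1. Of 664 values of named genes under alternatives, 626 kept direction and call, 37 changed sign and 1 was newly called. With the covariate, the log2 fold change was 0.0603 for mt-Nd1, 0.754 for mt-Atp6, 0.235 for mt-Co3, 0.185 for mt-Nd4l, 0.0701 for mt-Nd6, 0.921 for Cox4i2, 0.193 for Cox4i1, 0.182 for Ndufb9, 0.105 for Sdhc, 0.0901 for Sdha, 0.215 for Uqcrc1, 0.146 for Uqcrfs1, 0.142 for Uqcrb, 0.115 for Atp5c1 and 0.168 for Atp5b. With the block it was 0.0433 for Cox4i2 and -0.0872 for Ndufa4, and without the block in those libraries 0.12 and -0.0818. Sign changes on leaving out 1 library occurred for 8 genes, whose ranges were -0.141 to 0.267 for mt-Nd3, -0.278 to 0.0893 for mt-Nd4l, -0.0731 to 0.126 for Cox7a2, -1.02 to 0.172 for Cox4i2, -0.153 to 0.022 for Cox4i1, -0.0175 to 0.129 for Cox6b1, -0.0169 to 0.139 for Ndufa4 and -0.139 to 0.0228 for Uqcrb. The cause was not tested.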
